A study of Mus musculus with 2 samples.

Results

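Cone photoreceptors of the mouse retina were followed here in single-cell RNA libraries from control and light-damaged eyes. A droplet was chosen by its own transcripts: at least 1500 total UMIs (unique molecular identifiers, each standing for 1 captured RNA molecule), under 10% of UMIs from the mitochondrial genome, and at least 5 UMIs that made at least 0.15% of the spliced plus ambiguous UMIs over 7 cone genes, Arr3, Opn1sw, Opn1mw, Pde6h, Pde6c, Gnat2 and Gngt2. Droplets with 5 or more UMIs over the retinal pigment epithelium (RPE) genes Rpe65, Rgr and Ttr were dropped, which removed 1 control and 3 light damage droplets. The rule kept 291 of 9685 droplets, 186 of 3715 in the control and 105 of 5970 in the light damage library. All mice, of both sexes and 6 to 9 weeks old, carried 2 floxed Tgfbr2 alleles on a Balb-C/CD1 background and were homozygous for the light-sensitive RPE65 L450 variant; the study's methods take them as functionally wild type, and the labels give WT. Control mice were kept in the dark for 18 h, and light-damaged mice were then exposed to 5000 lux for 30 min and recovered for 6 h before collection. Each library pooled the retinae of 3 to 5 mice, so every comparison of conditions rests on 1 library per group, has no replicate check and carries no p-value. Intervals are 95% intervals of the counting error only.

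Cones are the photoreceptors of daylight and colour vision. Their opsins, Opn1sw for short and Opn1mw for middle wavelengths, activate the cone transducin Gnat2, which releases the brake Pde6h from the cone phosphodiesterase Pde6c; the falling cyclic GMP closes the channel built from Cnga3 and Cngb3, and the cone arrestin Arr3 ends the signal. Rods use a parallel set of proteins made from other genes, among them Gnat1, Pde6g and Cnga1, and many mouse cones make both opsins.

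The 2 libraries held 30605284 and 54413601 UMIs in all, of which 18.7% in the control and 32.7% after light damage were unspliced. The cone droplets together held 751507 control and 1182384 light damage UMIs that were spliced or ambiguous, and levels below, in CPM (UMIs of a gene in every 1000000 UMIs of the class), are relative to these sums. No barcode was shared between the cone droplets of the 2 libraries, against 7 among all droplets that passed the UMI and mitochondrial limits. The largest droplet supplied 13.8% of the control and 5.74% of the light damage cone UMIs, and the 10 largest supplied 39.4% and 32.1%. No droplet was removed as a doublet. The highest doublet scores of each library were marked at a rate of 0.8% for every 1000 of its 3715 or 5970 droplets. Of the cone droplets, 16 of 186 in the control (8.60%, 5.00% to 13.6%) and 9 of 105 after light damage (8.57%, 3.99% to 15.6%) were marked. Both shares lay above the share marked over all droplets, in the light damage library within the counting interval.

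Control cone droplets carried as much rod RNA as rods did, so the label of a single cone cell goes against the data in that library. Over 7 rod genes, among them Gnat1, Pde6g and Cnga1, the median share of UMIs was 8.25% in control cone droplets, with a range from 1.11% to 11.7%, against 8.93% in control rod droplets. After light damage the median was 2.36% in cone droplets, from 0.387% to 9.97%, against 4.16% in rods. Droplets with under 4% rod genes were 4 of 186 in the control (2.15%, exact binomial interval 0.589% to 5.41%) and 74 of 105 after light damage (70.5%, 60.8% to 79.0%). Those with at least 6% were 174 and 13. The members are therefore called cone-gene droplets below, and for the main genes the comparison of the libraries is also given by rod-gene share.

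**Figure D1:**
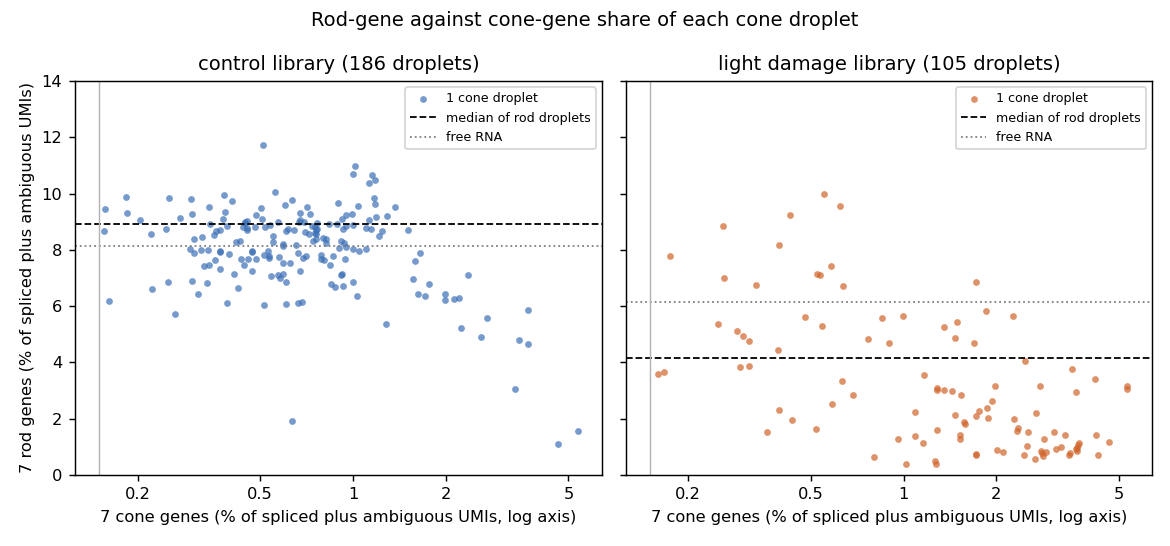
Share of UMIs from the 7 cone genes (x axis, %, log scale) and from the 7 rod genes (y axis, %) in each of the 186 control (left) and 105 light damage (right) cone-gene droplets; the dashed line is the median of rod droplets, the dotted line the share in free RNA and the grey vertical line the limit of 0.15% set by the rule. Control droplets lie in a band around 8.25% on the y axis, and light damage droplets reach down to 0.387%.

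The share of cone genes, which the rule used and which is given as a description, had a median of 0.658% in control and 1.52% in light damage droplets, and reached 5.37% and 5.32%. Across droplets of 1 library, Spearman's rank correlation between the cone-gene and the rod-gene share was -0.16 over 186 control droplets and -0.57 over 105 light damage droplets; the points share a library and the 2 shares a denominator. At the limit, the droplet just inside had a share of 0.156% in the control and 0.159% after light damage, the droplets just outside 0.140% and 0.146%, and 15 control against 2 light damage droplets held exactly 5 UMIs of the 7 genes, with 10 and 1 just outside at 4.

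Free RNA, taken from barcodes with under 50 UMIs, held 8.13% rod genes in the control and 6.15% after light damage, and 0.0451% and 0.0823% cone genes. Red blood cell genes (Hba-a1, Hba-a2, Hbb-bs and Alas2), which the rule did not use, stood at 463 CPM in free RNA of the control and at 4132 CPM after light damage. In cone-gene droplets they had 0 UMIs in the control, which allows up to 3.99 CPM, and 5 UMIs or 4.23 CPM after light damage; in rods they stood at 196 and 376 CPM. The 5 RPE markers were at 27.9 and 46.5 CPM in cone-gene droplets, where the rule limits them, and at 3163 and 12688 CPM in free RNA. Müller glia markers were at 69.2 and 101 CPM, bipolar markers at 104 and 77.8 CPM, amacrine markers at 21.3 and 26.2 CPM, microglia markers at 14.6 and 16.1 CPM and endothelial markers at 5.32 and 10.1 CPM, all but the bipolar list higher after light damage. As a percentage of the level in control free RNA, control cone-gene droplets held 10.1% for Müller glia, 35.5% for microglia and 51.1% for bipolar markers. The same value was 78.9% for amacrine markers, on 16 UMIs, and 67.0% for endothelial markers, on 4 UMIs. Rod genes in control cone-gene droplets were thus at the level of free RNA, red blood cell genes were not, and the other lists lay between. The part of free RNA and of cell pairs in the rod genes was not tested.

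The unspliced share, which is high in nuclear RNA, lay more often in a middle band in control cone-gene droplets than in rods. Its median was 21.4% in the control and 33.1% after light damage. Between 15% and 30% unspliced lay 144 of 186 control cone-gene droplets (77.4%, 70.7% to 83.2%), compared with 200 of 3202 control rods (6.25%, 5.43% to 7.14%). After light damage 13 of 105 (12.4%, 6.76% to 20.2%) lay in that band, compared with 93 of 5259 rods (1.77%, 1.43% to 2.16%). The 2 intervals do not overlap in either library. At the planned cut, at least 25% unspliced UMIs were found in 56 control (30.1%, 23.6% to 37.2%) and 66 light damage droplets (62.9%, 52.9% to 72.1%). In rods the shares were 25.3% (23.8% to 26.9%) and 62.3% (61.0% to 63.6%), with intervals that overlap those of cone-gene droplets in both libraries. The band from 15% to 30% was not part of that plan. Depth differed too, with a median of 2732 total UMIs and 981 genes per control droplet, and 11974 UMIs and 2833 genes after light damage.

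**Figure D2:**
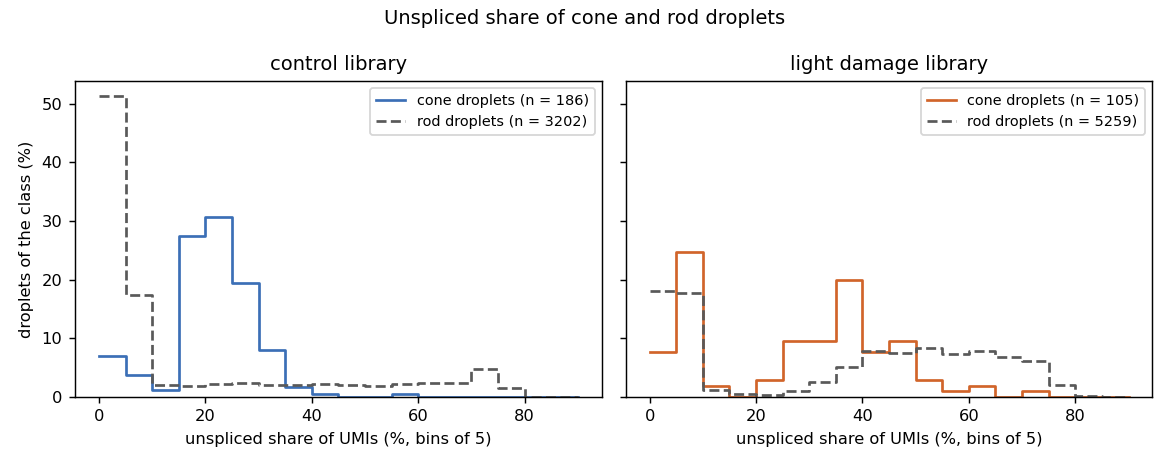
Unspliced share of UMIs (x axis, %, bins of 5) of cone-gene droplets (solid) and rod droplets (dashed), as a percentage of the droplets of each class (y axis), in the control (left) and the light damage library (right). In the control, 77.4% of cone-gene droplets and 6.25% of rods lie between 15% and 30%.

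Cone-gene droplets made 5.01% (4.33% to 5.76%) of the droplets that passed in the control and 1.76% (1.44% to 2.13%) after light damage. Among cone-gene plus rod droplets the shares were 5.49% (4.75% to 6.31%) and 1.96% (1.60% to 2.36%). The share was thus lower after light damage by more than the counting error. The order turned when only droplets with under 4% rod genes were counted, which made 0.108% of control and 1.24% of light damage droplets; loss of cones, capture and rod RNA in the droplets cannot be told apart here.

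The promoters of Opn1sw and Arr3 are shown because, of the 7 genes, Opn1sw was detected in most control and Arr3 in most light damage droplets. Each run is the RefSeq sequence of the 250 bases before the start site (build GRCm38.p6), in lower case with every TAATC or its complement GATTA, the core bound by the photoreceptor factor CRX, in capitals. At least 1 such match was present in 20.2% and at least 3 in 0.544% of 27025 promoter windows of the same length; both strands were searched and overlapping matches counted once.
Opn1sw, chr6:29380514-29380763, minus strand: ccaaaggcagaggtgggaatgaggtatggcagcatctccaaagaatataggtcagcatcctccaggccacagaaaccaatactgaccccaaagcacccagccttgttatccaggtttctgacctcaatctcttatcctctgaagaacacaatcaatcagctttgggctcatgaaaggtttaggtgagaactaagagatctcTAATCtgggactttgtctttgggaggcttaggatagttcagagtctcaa
Arr3, chrX:100605247-100605496, plus strand: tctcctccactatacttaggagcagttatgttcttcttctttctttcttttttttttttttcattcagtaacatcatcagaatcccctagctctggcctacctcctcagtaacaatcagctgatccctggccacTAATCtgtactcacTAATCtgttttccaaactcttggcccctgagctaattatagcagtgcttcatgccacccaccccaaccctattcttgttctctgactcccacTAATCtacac
Opn1sw held 1 match and Arr3 held 3. Of the 7 cone genes, 5 had a window in the table, and 3 of these held a match; 6 of 11 rod genes with a window held one as well. A match is a description of the letters and not a bound site.

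The 7 genes of the rule were far above rods in both libraries, as their use in the rule requires. Opn1sw stood at 3194 CPM in control and 3550 CPM in light damage cone-gene droplets, and at 10.0 and 4.15 CPM in rods. Opn1mw stood at 592 and 1623 CPM, with 0.932 and 1.83 CPM in rods. Arr3 stood at 1203 and 2976 CPM and the transducin Gnat2 at 652 and 826 CPM. Pde6h stood at 2194 and 3076 CPM, Pde6c at 110 and 386 CPM, and the transducin gamma subunit Gngt2 at 1077 and 2103 CPM. Every one of the 7 was higher in the light damage library, from 0.15 on the log2 scale for Opn1sw to 1.80 for Pde6c. Within droplets with under 4% rod genes every one was lower after light damage, from -0.40 for Pde6c to -1.46 for Pde6h, with the control side resting on 4 droplets.

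Detection per droplet showed which of the 7 genes defined the members in each library. Opn1sw had a UMI in 96.2% of control and 81.9% of light damage droplets, and Pde6h in 89.2% and 92.4%. Arr3 was detected in 71.0% and 94.3%, Gngt2 in 70.4% and 89.5% and Gnat2 in 64.0% and 81.0%. The scarcest were Opn1mw, in 44.1% and 76.2%, and Pde6c, in 15.6% and 67.6%. Opn1sw was thus the single one of the 7 found in a smaller share of the deeper light damage droplets. The median droplet had 4 of the 7 genes in the control and 6 after light damage, and in rods the median was 0. These shares follow depth as well as level, since they were not thinned.

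The 4 control droplets with few rod genes differed among themselves. The smallest had 1882 total UMIs, of which 58.2% were unspliced, and its 5 cone UMIs were all of Gngt2. The next had 4141 UMIs, only 4.59% of them unspliced, and the highest cone-gene share of the library, 5.37%. The other two were deep, with 22463 and 28709 UMIs, cone-gene shares of 3.34% and 4.61% and all 7 genes detected. Together they held 35877 spliced or ambiguous UMIs, so that 3 UMIs equal 83.6 CPM and most genes cannot be compared at this depth.

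The opsins varied between droplets. Both opsins were detected in 81 control droplets, Opn1sw alone in 98, Opn1mw alone in 1 and neither in 6. After light damage the numbers were 65, 21, 15 and 4. Of the control droplets with at least 5 opsin UMIs, 65 of 120 had over 90% Opn1sw and 0 had under 10%; after light damage 28 of 91 had over 90% and 16 under 10%. Opn1sw made 84.4% of the pooled opsin UMIs in the control and 68.6% after light damage. In droplets with under 4% rod genes the pooled share was 67.7% over 4 control and 66.4% over 74 light damage droplets, a smaller difference than over all droplets, with 3 of the 4 control droplets holding opsin UMIs. Where in the retina a droplet came from is not known, and opsin content differs along the dorsal to ventral axis.

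Other cone genes, which the rule did not use, were present in the same droplets. Of 12 listed, Gnb3, Thrb and Pygm, which rods also held, were set aside. Pygm stood at 82.5 CPM in control cone-gene droplets and at 19.8 CPM in control rods. Each droplet was thinned to 1000 spliced or ambiguous UMIs. Gnb3 alone was then detected in 21.9% of control and 43.3% of light damage rods. The low shares in rods below thus follow in part from the choice of genes. The 9 genes left (Cnga3, Cngb3, Kcne2, Adrb1, Rxrg, Otop3, Ccdc136, Slc24a2 and Elfn2) were taken as a set. After thinning, the set had at least 1 UMI in 86 of 185 control cone-gene droplets (46.5%, 39.1% to 54.0%), compared with 20 of 3028 control rods (0.661%, 0.404% to 1.02%). After light damage the share was 76 of 104 (73.1%, 63.5% to 81.3%), compared with 17 of 4875 rods (0.349%, 0.203% to 0.558%). In RPE droplets, a cell type in which these genes are not expected, it was 2.86% and 2.37%. Without thinning, the shares in cone-gene droplets were 68.1% and 91.3%, in rods 1.09% and 0.738% and in RPE droplets 5.14% and 11.3%. Among control droplets with at least 6% rod genes the thinned share was 47.7%, so cone RNA was present in rod-rich droplets too.

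**Figure D3:**
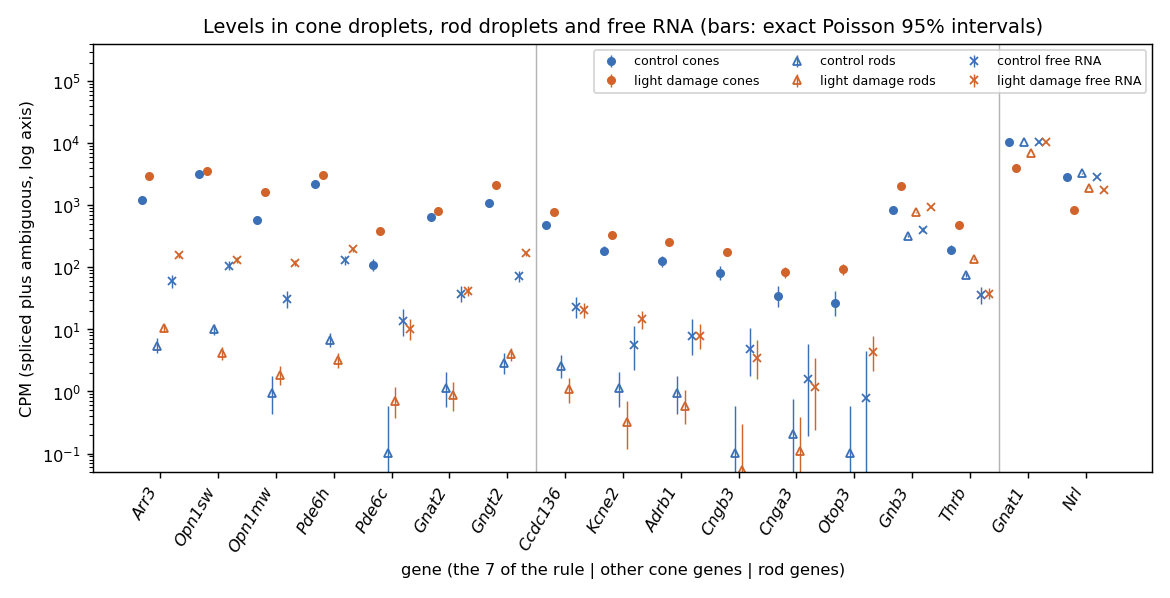
Level (y axis, CPM of spliced plus ambiguous UMIs, log scale) of the 7 genes of the rule, 8 other cone genes and 2 rod genes in cone-gene droplets (circles), rods (triangles) and free RNA (crosses) of the control (blue) and the light damage library (orange), with exact Poisson 95% intervals; a class without a UMI of the gene has no point. The cone genes Ccdc136 to Otop3 lie far above rods in both libraries, whereas Gnb3 and Thrb are also present in rods, and Gnat1 in control cone-gene droplets is close to its level in control rods.

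Levels of single cone genes showed the same. The cone channel subunit Cngb3 was at 82.5 CPM in control cone-gene droplets and at 0.104 CPM, or 1 UMI, in control rods (log2 difference 9.64, 7.11 to 14.96), and at 180 CPM after light damage. Its partner Cnga3 was at 34.6 and 83.7 CPM, the potassium channel subunit Kcne2 at 186 and 337 CPM and Ccdc136 at 490 and 787 CPM. The beta-1 adrenergic receptor Adrb1 was at 126 and 255 CPM and the sodium-calcium exchanger Slc24a2 at 63.9 and 162 CPM. The transducin beta subunit Gnb3 was not restricted to cones, with 853 and 2090 CPM in cone-gene droplets and 325 and 777 CPM in rods. Thyroid hormone receptor beta, Thrb, which drives Opn1mw expression, was at 193 and 480 CPM, with 75.9 and 139 CPM in rods.

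Among all genes the rule did not use, those most in excess over rods in the control were Ppm1j, a protein phosphatase, with 97.1 CPM against 0.104 CPM, then Cngb3, Ccdc136, the Wnt receptor Fzd10, Fam19a3 and the chloride channel regulator Clca1. Fzd10 and Clca1 had no UMI in 9656830 control rod UMIs and 35 and 31 UMIs in cone-gene droplets. Caspase 7, an executioner of cell death, was at 73.2 CPM compared with 0.207 CPM in rods, and was at 95.6 CPM compared with 0.324 CPM after light damage. Kcne2, Shisal1, Adrb1, Slc24a2, Nptx1, Aplp1, Mapk4 and Acbd6 complete the 15 highest. Car8, with 54.5% of its control UMIs in 1 droplet, stood apart, as did Chst2, App, Nin and Dzip3 for the same reason.

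Light damage was compared with control over 7423 genes whose cone UMIs, summed over the libraries, reached 30. A gene could reach 30 through the light damage library alone, which held more UMIs. This can push counts of higher genes and medians of lists upward. A gene was called higher or lower when the end of its counting interval nearest 0 lay past 2-fold, a rule of size and not a test. By this rule 258 genes (3.48%) were higher and 63 (0.849%) lower in cone-gene droplets. In rods, with at least 100 UMIs per gene, 961 of 10002 (9.61%) were higher and 113 (1.13%) lower. Among genes with at least 50 UMIs in each library, the median gene lay 0.42 higher in rods (8840 genes). In cone-gene droplets it lay 0.02 higher (2572 genes). Centring on this median gave 309 higher and 497 lower genes in rods. Over all genes tested the medians were 0.49 in rods and 0.25 in cone-gene droplets. Of the 258 higher genes, 11 were also called in droplets with under 4% rod genes and 8 in those with at least 6%; of the 63 lower genes, 2 and 4 were. Depth limits both, with 35877 UMIs on the control side of the first and 105073 on the light damage side of the second.

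The metallothioneins, small metal-binding stress proteins, were among the largest rises by this rule. Mt2 had 1 UMI in control and 173 UMIs (146 CPM) in light damage cone-gene droplets, a log2 difference of 6.78 (4.28 to 12.09). Mt1 went from 16.0 to 376 CPM, 4.56 higher (3.74 to 5.52). In droplets with at least 6% rod genes Mt1 differed by 2.25 (0.73 to 3.70), on 11 control and 8 light damage UMIs, and Mt2 had 0 and 8 UMIs. In those with under 4%, both had 0 control UMIs, with 255 light damage UMIs of Mt1 and 91 of Mt2. They were detected widely: Mt1 in 60 and Mt2 in 41 of 105 light damage droplets, with at most 12.6% and 12.1% of the UMIs in 1 droplet. Mt1 is also abundant in free RNA, at 437 and 4129 CPM, so it stood in light damage cone-gene droplets at a level under that of free RNA; the part of free RNA was not tested. In rods the same genes were 4.86 (Mt1) and 4.85 (Mt2) higher. The 250 bases before the start sites of both genes, neighbours on chromosome 8, are shown with TGCNCNC or its complement in capitals. This is a loose spelling of the core of the metal response element that allows any base at each N, so not every match fits a stricter core. At least 1 match was present in 43.8% and at least 4 in 0.951% of the windows.
Mt1, chr8:94178839-94179088, plus strand: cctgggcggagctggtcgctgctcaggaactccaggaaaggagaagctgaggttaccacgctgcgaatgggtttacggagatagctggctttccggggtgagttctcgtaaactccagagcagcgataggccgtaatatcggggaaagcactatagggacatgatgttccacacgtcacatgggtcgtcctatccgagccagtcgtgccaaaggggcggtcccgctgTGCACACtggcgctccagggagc
Mt2, chr8:94172368-94172617, plus strand: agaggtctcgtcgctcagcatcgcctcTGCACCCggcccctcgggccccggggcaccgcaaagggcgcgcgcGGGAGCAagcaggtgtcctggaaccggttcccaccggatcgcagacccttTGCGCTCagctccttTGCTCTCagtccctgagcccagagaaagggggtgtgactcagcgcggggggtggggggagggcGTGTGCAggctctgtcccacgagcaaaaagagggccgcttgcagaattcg
In these windows Mt1 held 1 match and Mt2 held 5. Bases past the RefSeq start sites were not searched, and the annotated Mt2 gene starts further on, at chr8:94172664. The counts describe the letters shown, not the whole promoters or bound sites.

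Immediate early genes, whose transcription starts within minutes of a stimulus, were higher as a group. Of 21 genes of the AP-1 and early response list, 12 had enough UMIs, some of them through the light damage library alone. Of these 12, 8 were called higher and 0 lower, beside 3.48% and 0.849% over all genes. The list's median log2 difference was 3.26, against 0.25 over all genes tested. The zinc finger factor Egr1 went from 17.3 to 416 CPM (4.59, 3.80 to 5.51), with 1.84 (0.60 to 3.47) in droplets under 4% rod genes, where its call was lost, and 4.24 (3.02 to 5.61) at or over 6%. Junb went from 20.0 to 354 CPM (4.15, 3.41 to 5.00), with 3.74 (1.25 to 9.05) on 1 control UMI and 2.23 (0.90 to 3.50) in the same sets. Jun went from 41.3 to 422 CPM, Atf3 from 13.3 to 189 CPM and Fos from 18.6 to 167 CPM. Nr4a1, Jund and the RNA-decay factor Zfp36, which had 0 control and 33 light damage UMIs, were called as well, Jund with a value of -0.0069 when free RNA was subtracted, whereas Btg2, Ier2, Ier3 and Klf6 were not. The list's median was 2.75 in droplets under and 2.79 in those with at least 25% unspliced UMIs, 1.31 in droplets with under 4% and 1.01 in those with at least 6% rod genes. After thinning, Junb was detected in 1.62% (0.336% to 4.67%) of control and 26.0% (17.9% to 35.5%) of light damage cone-gene droplets, beside 1.35% and 28.1% of rods. Egr1 was detected in 1.62% and 24.0%, beside 0.826% and 14.4% of rods. These genes were higher in free RNA too, Egr1 from 10.3 to 173 CPM and Junb from 19.9 to 662 CPM, so that Junb stood above cone-gene droplets there and Egr1 below; the part of free RNA was not tested.

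Genes of cytokine signalling through gp130, JAK kinases and STAT3 were in part higher. Of 20 listed, 9 were tested, and of these 4 were called higher and 0 lower, beside 3.48% and 0.849% over all genes. Above 0 lay 7, and 2, Jak1 and Jak2, lay below, with a median of 1.35 against 0.25 over all genes. Stat3, the signal transducer, went from 29.3 to 269 CPM (3.20, 2.58 to 3.89), and its feedback inhibitor Socs3 from 1 to 80 UMIs (5.67, 3.15 to 10.99). Cish, another inhibitor of the family, went from 9.31 to 47.4 CPM and the shared receptor subunit Il6st from 34.6 to 118 CPM. Stat2, Lifr, Jak1 (-0.60) and Jak2 (-0.18) were among those not called. In droplets with under 4% rod genes Stat3 differed by 0.53 (-0.54 to 1.86), with 7 control UMIs, and in those with at least 6% by 2.49 (1.25 to 3.71). In free RNA Stat3 stood at 13.5 CPM in the control and 172 CPM after light damage, and the part of free RNA was not tested. Thinned, Stat3 was detected in 3.78% of control and 17.3% of light damage cone-gene droplets, beside 1.72% and 20.1% of rods. Cebpd, an acute-phase transcription factor, had 0 control and 43 light damage UMIs, while in free RNA it stood at 11.1 and 310.2 CPM, far above its 36.4 CPM in light damage cone-gene droplets. Of 7 genes of the C/EBP and metallothionein list, 4 were tested and 3 of these were called higher. Their median was 5.17, against 1.27 in droplets with under 4% and 2.28 in those with at least 6% rod genes. Both lists hold genes that passed the UMI filter through the light damage library, such as Socs3 and Cebpd.

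**Figure D4:**
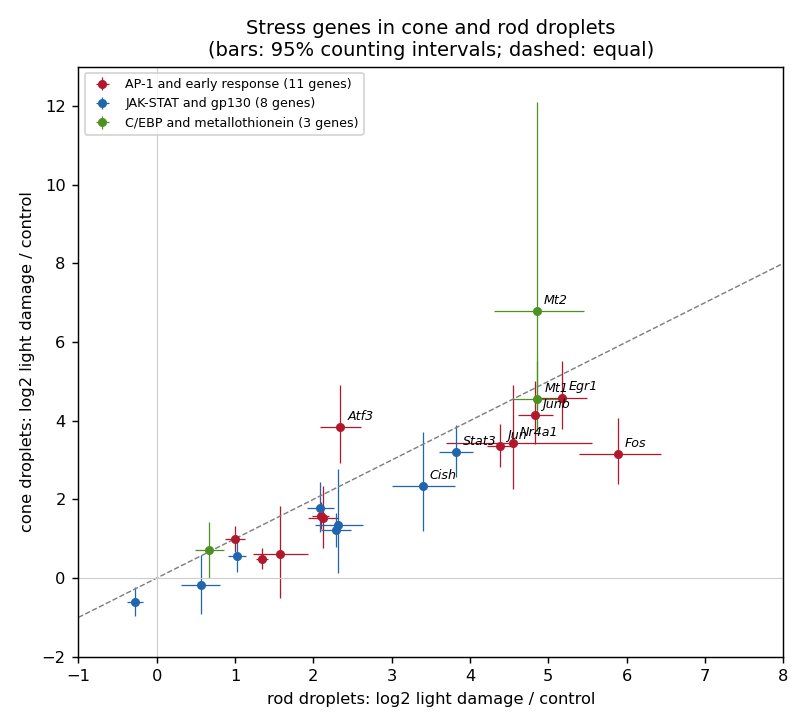
Log2 ratio of light damage to control in rods (x axis) and in cone-gene droplets (y axis) for tested genes of 3 stress lists with UMIs in all classes, with 95% counting intervals; the dashed line marks equal ratios. Most genes lie near or below the line, and Fos lies far below it (3.16 in cone-gene droplets and 5.89 in rods). Atf3 lies above the line, as does Mt2 (6.78 in cone-gene droplets and 4.85 in rods), whose interval of 4.28 to 12.09 reaches it.

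Survival and repair genes gave fewer calls. Fgf2, a growth factor that protects photoreceptors, went from 10.6 to 73.6 CPM (2.79, 1.75 to 4.05). Its ratio was 1.48 (-1.05 to 6.81) under 4% rod genes, on 1 control UMI, and 2.90 at or over 6%, on 7 and 8 UMIs. Fgf2 was the single one of 6 survival factors called. Nxnl1, the source of the rod-derived cone viability factor, differed by -0.95 (-1.17 to -0.74). Rod genes were lower too, with a median of -1.25, and the part of rod RNA in the Nxnl1 value was not tested. Among 13 heat shock genes, Hsph1 (1.55), Hsp90ab1 (1.25, with 0.19 under 4% and 0.08 at or over 6% rod genes) and Cryab were called higher, Cryab with 30.0% of its light damage UMIs in 1 droplet, and Hspa1b was lower (-1.64). Of 17 oxidative stress and iron genes, the transferrin receptor Tfrc was higher (1.45, 1.09 to 1.83) and the glutathione transferase Gstp1 lower (-2.86, -3.50 to -2.26). The clock repressor Nr1d1 was the 1 called of 14 clock genes (2.05). None of 13 unfolded protein response, 12 apoptosis and p53, 12 TGF-beta pathway, 5 NF-kB and 13 microRNA machinery genes was called in either direction, which at 3.48% higher and 0.849% lower over all genes is not a result about lists of this size; their medians were 0.33, 0.32, 0.80, 0.31 and 0.21. Of 37 nuclear genes of complex I, 34 lay below 0 with a median of -0.60 and 0 called. Of 80 ribosomal protein genes, 77 lay below 0 with a median of -0.73 and 4 called lower. Over all 7423 genes tested, 2639 lay below 0, with a median of 0.25.

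The largest falls held rod genes. Of 16 rod genes, 11 were called lower and 16 lay below 0, with a median of -1.25. Over all 7423 genes tested, 0.849% were called lower and 2639 lay below 0. Gnat1 went from 10354 to 4055 CPM (-1.35) and Pde6g from 9353 to 3171 CPM (-1.56). The rod-fate factors Nrl (-1.77) and Nr2e3 (-2.16) were among the 12 largest falls. The splits by rod-gene share were made with 7 rod genes and so fix the level of these genes in both libraries; their values within the splits are a description of the droplets. Of the rod genes outside that set, Nrl differed by 0.61 (-0.21 to 1.57) under 4%, with 12 control UMIs, and by -0.65 (-0.87 to -0.44) at or over 6%. In rods themselves the median was -0.57, with 3 of 16 called lower.

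Genes of phototransduction and outer segments that both photoreceptors use changed less as a group. Of 26 tested, 2 were called lower and 0 higher, beside 0.849% and 3.48% over all genes. The median was -0.45, against 0.38 in droplets with under 4% rod genes. The calcium sensor recoverin, Rcvrn, went from 4765 to 1796 CPM (-1.41, -1.49 to -1.33) and the disc rim protein Rom1 from 7055 to 2934 CPM (-1.27, -1.33 to -1.20). Prph2, the partner of Rom1, differed by -1.03, the cyclase activator Guca1a by -0.98 and the arrestin Sag by -0.63, none of them called. Of 20 genes of the photoreceptor synapse none was called, with a median of 0.32. Aldoc, an aldolase of glycolysis, was the 1 called of 22 energy supply genes, from 193 to 55.8 CPM (-1.79, -2.23 to -1.36).

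Long non-coding RNAs did not move together. Of 8 tested, 2 were called higher and 2 lower, the latter Xist and Tsix, beside 3.48% and 0.849% over all genes. Meg3, an imprinted RNA, went from 108 to 277 CPM (1.36, 1.01 to 1.73), while in rods it had 50 control and 9 light damage UMIs, too few for the class comparison of rods. It had 25 control and 7 light damage UMIs in droplets under 25% unspliced, and its log2 ratio was 0.96 in those at or over and -3.50 in those with at least 6% rod genes. Mir124a-1hg, the host transcript of a neuronal microRNA, went from 591 to 1411 CPM (1.26 higher) and differed by 1.60 in rods and by -2.24 in droplets with at least 6% rod genes. Malat1, retained in the nucleus, went from 15542 to 31427 CPM (1.02 higher) and was not called; it differed by -3.08 in droplets with at least 6% rod genes. The direction of all 3 thus depended on the droplets chosen, and the unspliced share moved with them.

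**Figure D5:**
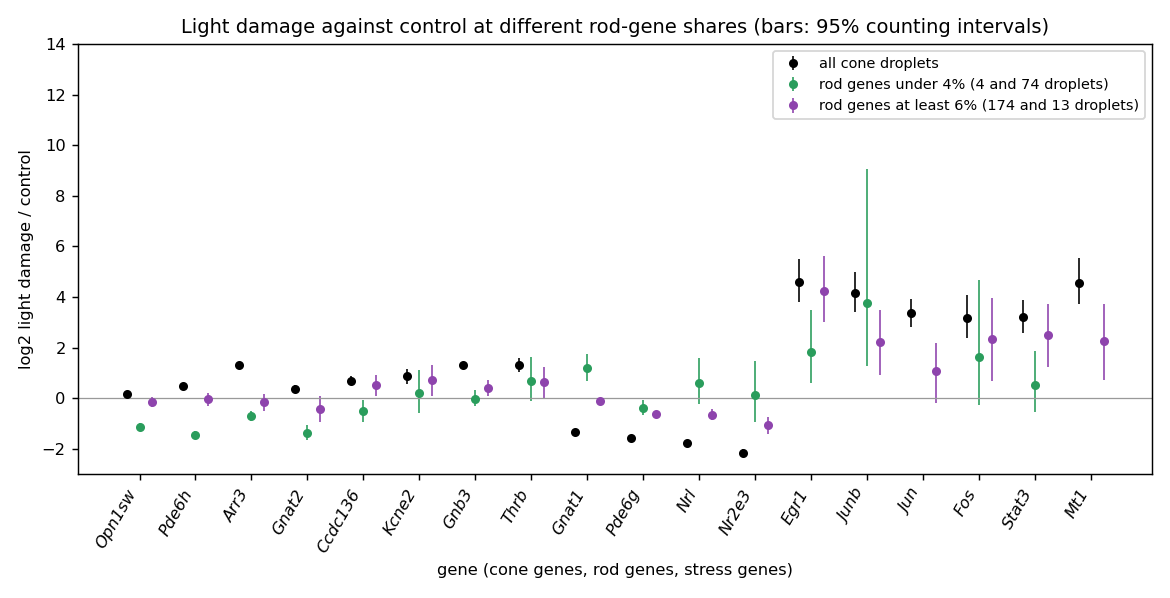
Log2 ratio of light damage to control (y axis) for cone, rod and stress genes (x axis) over all cone-gene droplets (black), over those with under 4% rod genes (green, 4 control and 74 light damage droplets) and over those with at least 6% (purple, 174 and 13 droplets), with 95% counting intervals; a ratio with 0 UMIs on 1 side has no point. Rod genes lie below 0 over all droplets (Gnat1 at -1.35) and, other than Pde6g at -0.37, not in the green set (Gnat1 at 1.18), whose limit was set with 7 rod genes, Gnat1 and Pde6g among them. Cone genes of the rule lie above 0 and then below, and Egr1 lies above 0 in each set.

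Genes of the sex chromosomes moved with the condition. Xist, expressed from the inactive X chromosome of females, had 466 UMIs in control and 0 in light damage cone-gene droplets (at least 244-fold lower, against 3 UMIs over the group), and its antisense partner Tsix had 93 and 0. The Y-linked genes Eif2s3y and Ddx3y rose from 1 UMI each to 93 (log2 difference 5.89, 3.37 to 11.20) and 81 UMIs (5.69, 3.17 to 11.01). In rods, Xist went from 393 to 0.108 CPM and Eif2s3y from 4.97 to 69.9 CPM. The 2 pools thus differed in sex make-up, though the study states only that both sexes were used. The sex of the pooled mice and the condition cannot be told apart, and every difference named here carries both.

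Among the remaining named rises, Anxa5, a phosphatidylserine-binding annexin, had 0 control and 62 light damage UMIs in 18 droplets (at least 13.1-fold higher), with 0 UMIs in either library at or over 6% rod genes. Map3k8, a kinase upstream of MAPK signalling, went from 3 to 123 UMIs and Gm8251 from 4 to 179. Among the falls, Rpl9 went from 427 to 83.7 CPM, Gm10260 from 150 to 29.6 CPM, Ebpl from 488 to 130 CPM, Col4a3 from 62 to 14 UMIs, Meig1 from 52 to 13, BB218582 from 43 to 11 and A930031H19Rik from 32 to 6. Gstp1, Rpl9 and Gm10260 were lower in rods by similar amounts, -2.82, -2.51 and -2.14; near-identical gene copies can divide the reads of Rpl9 and Gstp1. Ddit4l, Hist2h3c2, Rncr4, Katnal2 and AC166110.4 (lower) and Brip1os, Ripk1 and Cryab (higher) were called with over 25% of the UMIs of the higher library in 1 droplet.

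Kif4, a mitotic kinesin, had 1 spliced or ambiguous UMI in control and 93 in light damage cone-gene droplets (5.89, 3.37 to 11.20), in 24 droplets, while the 5259 light damage rods held 5. Its unspliced UMIs numbered 28 and 89 in cone-gene droplets and 9 and 45 in rods. Kif4 (chrX:100625737-100727214) starts 7244 bases past the end of the cone arrestin gene Arr3 (chrX:100605497-100618493) on the same strand. Arr3 itself had 904 spliced or ambiguous and 2493 unspliced UMIs in control cone-gene droplets, and 3519 and 4861 after light damage. Whether Kif4 UMIs came from transcripts that began at Arr3 was not tested.

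Responses were compared between the classes for genes with at least 30 UMIs in cone-gene droplets and 100 in rods. They differed by more than 2-fold beyond counting error for 17 genes in the direction of cones and 22 in that of rods. Centring each class on its median gene with at least 50 UMIs in each library turned these into 78 and 3. That median lay 0.42 higher in rods and 0.02 higher in cone-gene droplets, against 0.49 and 0.25 over all genes tested. The balance of the 2 directions is thus a matter of scaling. Tnfrsf12a, the receptor of the injury cytokine TWEAK, stood out on the cone side, from 6.65 to 124 CPM in cone-gene droplets and from 9.53 to 15.4 CPM in rods (difference 3.41, 2.13 to 4.68). It was seen in 34 light damage droplets, with 22.4% of its UMIs in 1. In droplets with at least 6% rod genes it had 0 light damage UMIs, and in those with under 4% it stood at 165 CPM after light damage, with 0 control UMIs. RPE droplets went from 3.88 to 91.8 CPM and free RNA from 6.35 to 75.2 CPM, both under the light damage level of cone-gene droplets. Thinned, Tnfrsf12a was detected in 2.16% of control and 11.5% of light damage cone-gene droplets, beside 0.661% and 1.17% of rods.

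Crxos, a gene 2649 bases from Crx on the opposite strand, had 1 control and 80 light damage UMIs in cone-gene droplets (5.67, 3.15 to 10.99) and differed by 0.74 in rods. Its unspliced UMIs in cone-gene droplets were 189 and 546, so UMIs were assigned to the gene in both libraries. Reads on the reverse strand of a transcript were left out of the authors' counts. Crx, the master regulator of photoreceptor genes, differed by 0.04. Scg3, a secretory granule protein, differed by 1.33 in cone-gene droplets and by -0.69 in rods (difference 2.01, 1.55 to 2.48); in droplets with under 4% rod genes its ratio was -0.62. Tshz2 (2.14), Fam162a (2.17), Utp18 (3.17), Qsox1 (2.08), Cyfip2 (1.82), Lrtm1 (1.88) and the initiation factor Eif3b (1.78) complete the 10 named in this direction, ranked by the end of the interval nearest 0.

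On the rod side, with genes that rest on 1 droplet such as Katnal2 (-3.57) set apart, Fos came first by the same ranking, 3.16 higher in cone-gene droplets and 5.89 higher in rods (difference -2.75, -3.67 to -1.84), from 18.6 CPM in control cone-gene droplets and 3.31 CPM in control rods. The light damage levels were 167 and 196 CPM, closer to each other than the control levels, which rest on 14 UMIs in cone-gene droplets. Jun differed by 3.35 and 4.39 and Ier3 by 0.49 and 1.34. Vax2os, transcribed opposite to the retinal patterning gene Vax2 and overlapping it by 937 bases, was -0.55 in cone-gene droplets and 0.94 in rods. The others were 5430419D17Rik (-2.24), A430105J06Rik (-2.18), Cant1 (-2.32), Arhgap17 (-1.97), Amotl2 (-1.83), Zfp458 (-1.97), Bfar (-1.67) and Arl4d (-1.47), each with 11 to 153 UMIs per library in cone-gene droplets. Restricted to droplets with under 25% or at least 25% unspliced UMIs in both classes, 3 and 13 genes were on the rod side.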

How the data were processed

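Retinae of control and light-damaged mice were dissociated with papain and collagenase, dead cells were removed with beads, and 1 10x 3' library per condition was sequenced. The authors demultiplexed the reads with Cell Ranger 7.0.1 and deposited raw UMI counts per barcode and gene, split into spliced, unspliced and ambiguous, from salmon 1.10.1 and alevin 0.8.1 on an mm10 index of spliced transcripts and introns. Reads on the reverse strand of a transcript were left out. Their later removal of empty droplets, doublets and free RNA is not part of these counts. Here the counts of a gene were its spliced plus ambiguous UMIs, and totals also held unspliced UMIs; 32235 of 32285 gene identifiers had a name. Levels are CPM of summed UMIs with exact Poisson intervals, shares have exact Clopper-Pearson intervals, and ratios have exact conditional binomial intervals; cone minus rod differences have Wald intervals with 0.5 added to each count (scipy 1.17.1, run in Python 3.11.15). Doublets were scored with Scrublet (scanpy 1.11.5) and kept. Named genes were the 12 highest and 12 lowest among called genes by the end of the interval nearest 0, the 10 largest cone minus rod differences each way by the same end, and the 15 genes most in excess over rods, with genes resting on 1 droplet for over 25% of UMIs set apart; others come from lists or were named beside them. The members and lists were chosen with earlier results of these data known. The interval calculation was tested on simulated Poisson counts, the model that the intervals assume. Uneven droplets were not simulated, so that run checks the arithmetic and not the coverage in these data. Alternatives covered droplet limits, doublets, unspliced UMIs, free RNA, scaling and gene filters. The values of some genes are not reported here, though sums over gene lists include them.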

Additional observations from a re-analysis of the deposited data

Results flagged for a closer look

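Opposite directions in cone-gene droplets and rods, each with its own counting interval on one side of 0, drew attention to the 15 genes given here. Only genes already named or in some of the gene lists were searched. Fam162a, Scg3, Cyfip2, Cant1, A430105J06Rik, Zfp458, Bfar and Vax2os had been named for their large difference between the classes. The median rod gene with at least 50 UMIs in each library lay 0.42 higher. The rod values of A430105J06Rik (0.27), Gucy2f (0.34) and Gucy2e (0.13) lay under it. The differences between the classes were not tested, since there is 1 library per condition. As cone minus rod log2 response, the higher ones were Fam162a at 2.17, Scg3 at 2.01, Cyfip2 at 1.82, Pde6h at 1.59, Opn1sw at 1.42 and Hsp90aa1 at 0.16; Pde6h and Opn1sw were used to choose the droplets and are a description only. The lower ones were Cant1 at -2.32, A430105J06Rik at -2.18, Zfp458 at -1.97, Bfar at -1.67, Vax2os at -1.49, the orphan receptor Esrrb at -1.11, the guanylate cyclases Gucy2f at -0.98 and Gucy2e at -0.83, and the outer segment protein gene Rp1 at -0.93. Several of these directions turned by rod-gene share: the cone-gene droplet ratio of Gucy2f was -0.63 over all, 0.24 under 4% and 0.57 at or over 6% rod genes, under 4% that of Rp1 was 2.02, Vax2os 1.21, Fam162a -0.11, Scg3 -0.62, Opn1sw -1.13 and Pde6h -1.46, and at or over 6% Opn1sw was -0.15 and Pde6h -0.05.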

How the results depend on the processing

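No paired analysis was possible because each condition has 1 library, and no library could be left out. The cause of each change below was not tested unless fewer droplets or genes entered. Of 128 recomputed counts and shares over 13 results, 82 kept within their limits and 46 moved; of 2238 gene values over 157 results, 1589 stayed within the counting interval, 629 moved and 20 reversed. Splits at 4% and 6% rod genes and leaving out the 10 largest droplets were chosen after seeing the data. The 258 higher genes in cone-gene droplets became 68 under and 168 at or over 25% unspliced, 809 with free RNA subtracted (95.9% of control and 53.3% of light damage UMIs by the rod genes), 23 under 4% and 16 at or over 6% rod genes. That subtraction took all rod-gene UMIs as free RNA, and its scale was not tested on other genes. Red blood cell genes, at 463 CPM in control free RNA, had 0 UMIs in control cone-gene droplets. Müller glia, bipolar and amacrine markers stood there at 10.1%, 51.1% and 78.9% of their level in free RNA. The same scale gave every value with free RNA subtracted. The 63 lower genes became 13 under 25% unspliced, 109 with unspliced UMIs added, 159 with free RNA subtracted, 33 under 4% and 18 at or over 6% rod genes. In rods, 961 higher genes became 101 under and 205 at or over 25% unspliced and 309 centred, and 113 lower became 20, 39 and 497, or 404 with unspliced UMIs added. The 17 differences on the cone side became 40 with unspliced UMIs added, 297 with free RNA subtracted, 78 centred, 37 with genes of at least 10 UMIs, 44 unfiltered, 7 under 4% rod genes and 31 without the 10 largest droplets. The 22 on the rod side became 67 with a cone gene share of at least 0.5%, 44 without the highest doublet scores, 3 under and 13 at or over 25% unspliced, 450 with free RNA subtracted, 3 centred, 54 with genes of at least 10 UMIs, 75 unfiltered, 147 under 4% and 66 at or over 6% rod genes, and 55 without the 10 largest droplets. The control share of 5.01% was 5.88% at a mitochondrial limit of 5%, 3.36% at a cone gene share of at least 0.5% and 0.108% under 4% rod genes; the light damage share of 1.76% was 1.44% at that cone gene share, 1.24% under 4% and 0.218% at or over 6% rod genes. The share with at least 25% unspliced went from 30.1% to 46.3% in the control at 3000 total UMIs and to 75% under 4% rod genes, and from 62.9% to 15.4% after light damage at or over 6%. At or over 6%, Junb was detected in 15.4% and Mt1 in 0% of 13 thinned light damage droplets. Reversal was counted only for genes called over all droplets among the recomputed ones, which left out the long non-coding RNAs. With 0.5 added to each count, those that reversed under 4% rod genes were Nr2e3 (0.0463), Nrl (0.55), Gnat1 (1.16), Gnb1 (1.41), Pde6a (1.00), Cnga1 (1.69), Slc24a1 (1.87), Reep6 (0.64), Rom1 (0.0599), Scg3 (-0.64), Arr3 (-0.73), Opn1mw (-1.05), Pde6c (-0.43) and Gnb3 (-0.026), and the cone minus rod differences of Vax2os (0.11) and Arl4d (1.77). At or over 6%, Arr3 (-0.16), Pde6c (-0.41) and Otop3 (-0.75) reversed, and with free RNA subtracted Jund (-0.0069) did. Depth limits the split by rod genes most, where the control holds 4 droplets under 4%.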
